A study of Homo sapiens with 6 samples.

Results

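The p53 target and BCL2 family genes are 40 transcripts chosen by symbol from a list of p53 pathway and apoptosis regulators, and they are 40 of the 19977 genes counted in the series. All 40 were found by their Ensembl identifiers in GENCODE 44 and all 40 passed the minimum of 10 counts over the 6 libraries, so that they are 40 of the 16505 genes tested. The transcripts were measured by bulk stranded mRNA sequencing of NCRM-1, a wild-type human induced pluripotent stem cell (hiPSC) line, grown as aggregates in vertical wheel bioreactors for 4 days. The cells were seeded as single cells and 50% of the medium was replaced on day 2. The 3 PEG and HS libraries came from Essential 8 medium (E8) with 10 mg/ml polyethylene glycol (PEG) and 0.1 µg/ml heparin sodium salt (HS), and the 3 Control libraries came from E8 without additives. The treatment text of the labels describes PEG and heparin for all 6 libraries, and the groups follow the separate treatment field. The titles and growth text read as 1 bioreactor for each medium, so that a medium cannot be told apart from its vessel, and p-values measure the spread between samples that may share a vessel. Reads counted on genes were 26991279 to 36185138 per library, and the common biological coefficient of variation was 3.12%. Levels are CPM, counts relative to library size, after scaling by trimmed mean of M values (TMM) factors, and log2 fold changes are positive where PEG and HS was higher. Means are given ± SD over the 3 libraries of each medium, PEG and HS first, and gene coordinates are those of GRCh38.

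p53 is a transcription factor that is held low in unstressed cells by the ubiquitin ligase MDM2 and its relative MDM4. When DNA is damaged or cells are stressed it activates genes for cell cycle arrest, DNA repair, metabolic adaptation and death. BCL2 proteins decide whether the outer mitochondrial membrane is opened. The guardians (BCL2, BCL2L1 and MCL1) hold back the effectors BAX and BAK1, and BH3-only proteins bind the guardians or activate the effectors. Once the membrane opens, released cytochrome c assembles the apoptosome on APAF1 and caspases are activated. Human pluripotent stem cells are known for a low threshold of mitochondrial apoptosis and for a strong loss of cells after dissociation to single cells.

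In PEG and HS, the BH3-only transcripts BIK, BMF, BBC3, BAD and BCL2L11 fell and PMAIP1 rose, while the effectors BAX and BAK1 did not pass the test. Among the guardians, BCL2L1 fell and MCL1 rose. Of the p53 feedback genes, MDM2 and MDM4 rose and CCNG1 fell. CDKN1A, the p53 target that arrests the cell cycle, did not pass the test. MDM2, MCL1 and BCL2L11 no longer passed the test in some fits that left 1 library out. With edgeR's quasi-likelihood test, a gene was called at a Benjamini-Hochberg adjusted p under 0.05 over all genes tested. By this rule 19 of the 40 members (47.5%) were called, 10 higher and 9 lower, beside 25.3% of all genes tested (12.2% higher and 13.1% lower). Among genes with a mean of at least 1 CPM the called share was 29.6%. The median of the mean levels was 28.4 CPM over the members and 18.9 CPM over all genes tested. Without Control replicate 1 or without Control replicate 2, 6 members were called higher in each case, with 8 and 9 called lower. With each library corrected for its trend with GC content and transcript length, 16 members were called higher and 9 lower. The calls over all genes tested shifted the same way under this correction, from 2016 higher and 2157 lower to 2904 higher and 1967 lower.

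The changes were small in most members. Of the 19 called members, 17 changed by less than 1.5-fold, the exceptions being BIK and GADD45B, and the median absolute log2 fold change was 0.22 over the called members and 0.25 over all genes called. The median log2 fold change was 0.02 over the 40 members and 0.0031 over all genes tested. In 22 members (55%) the CPM of the 2 media did not overlap, beside 39.3% of all genes tested. These 22 hold the 19 called members and GADD45A, DDB2 and GDF15, which were not called. Of the 40 members, 36 share under 10% of their 31-base transcript words with other genes. MDM2, PLK3, XPC, POLH, TP53I3, FAS, TP53INP1, TNFRSF10B, BAD, MCL1 and APAF1 overlap a counted gene of the opposite strand in their exons, and whether the counting used strand is not given in the sources used here.

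**Figure D1:**
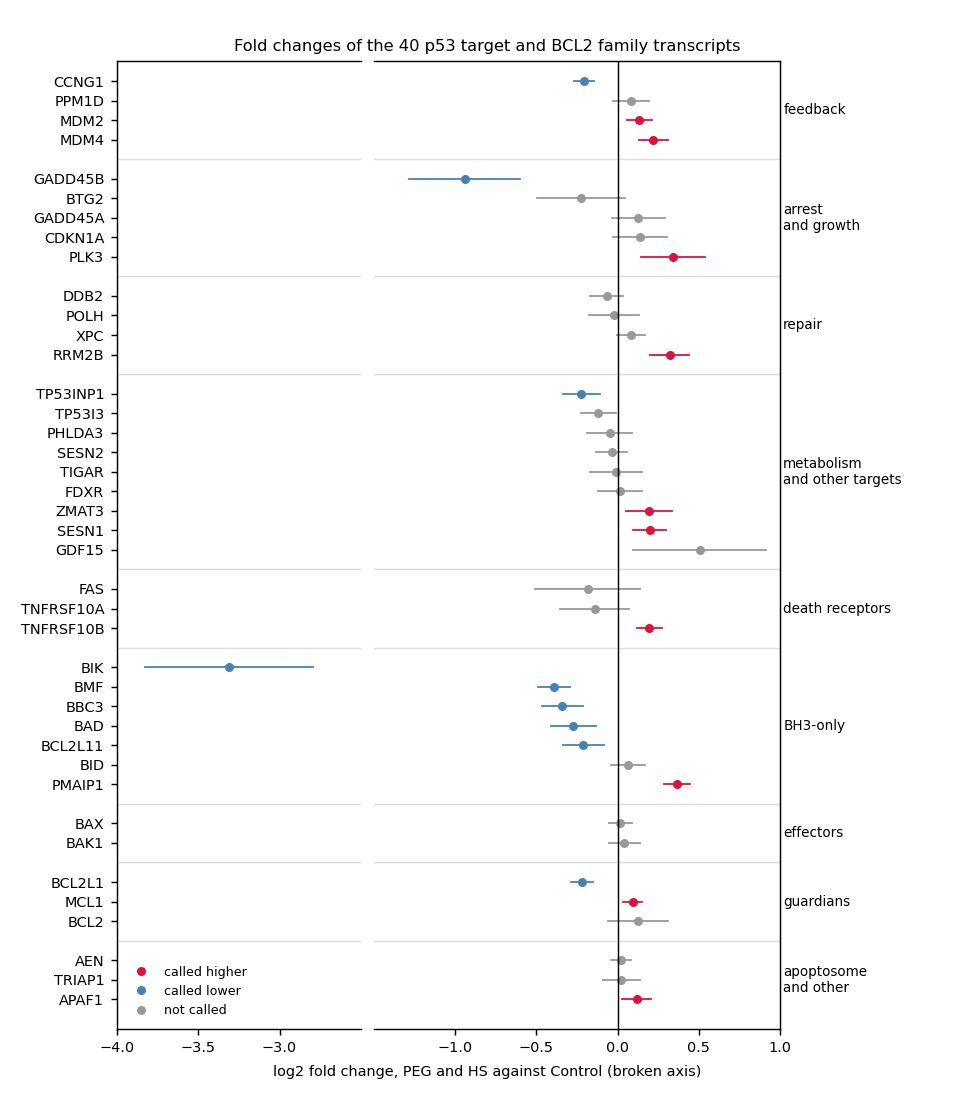
Log2 fold change (x axis, PEG and HS against Control, with a break) with its 95% confidence interval from edgeR for each of the 40 members, grouped by role, with called genes in colour. BIK stands apart at -3.31, GADD45B is next at -0.94, and the other called members lie between -0.39 and 0.36.

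The cells carried the defining transcripts of pluripotent stem cells. All 10 pluripotency markers were tested, with a summed level of 9464 to 9663 CPM in PEG and HS and 9809 to 9955 CPM in Control, and 4 of them were called higher and 4 lower. The sums cover changes in both directions. SOX2 (273 ± 3.92 against 412 ± 11.8 CPM, log2 fold change -0.59) and PODXL (-0.41) fell. NANOG (185 ± 1.76 against 126 ± 0.610 CPM, log2 fold change 0.55) and DPPA4 (0.30) rose. The shares called over all genes tested were 12.2% higher and 13.1% lower, and 29.6% of genes with a mean of at least 1 CPM were called. Markers of other cell types moved with the medium as well. Of 10 neuroectoderm markers 9 were called lower and none higher, and their summed level was 573 to 611 CPM in PEG and HS and 788 to 819 CPM in Control. Most of that sum was NES, named after its values were seen, which fell least of the 9 (543 ± 20.5 against 643 ± 14.02 CPM, log2 fold change -0.24). The median log2 fold change of the 10 was -1.47, with OTX2 at 18.6 ± 1.31 against 79.4 ± 1.55 CPM. Trophectoderm and amnion markers summed to 4.30 to 4.76 CPM in PEG and HS and 13.1 to 13.7 CPM in Control, with 3 of the 4 tested called lower and CGA at 0 in each library. Most of these sums was KRT7 (3.76 ± 0.557 against 7.10 ± 0.296 CPM) and TFAP2A (0.603 ± 0.269 against 6.00 ± 0.230 CPM). HAND1, named after its values were seen, was the other called, with 16 counts in all, and it is also in the mesoderm list. Mesoderm and primitive streak markers (2 of 6 called lower) summed to 5.47 to 5.66 and 6.19 to 7.40 CPM, and endoderm markers (0 of the 4 tested called) to 3.93 to 4.27 and 4.77 to 5.93 CPM. The part of these cells in the member values was not tested. In bulk RNA, fewer cells of a type and less RNA per cell cannot be told apart.

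Of the 4 p53 feedback genes 2 rose and 1 fell, beside 12.2% of all genes tested called higher and 13.1% lower. MDM2 (ENSG00000135679, chromosome 12, 68808177 to 68845544), the ubiquitin ligase that marks p53 for degradation, was measured at 75.5, 73.8 and 77.1 CPM with PEG and HS and 67.9, 66.6 and 71.6 CPM in Control. The 3 PEG and HS values lay above the 3 Control values by a narrow margin. The difference was 75.5 ± 1.64 against 68.7 ± 2.59 CPM (log2 fold change 0.14, SE 0.036, edgeR adjusted p = 0.012). Its adjusted p from edgeR was 0.0505 without PEG and HS replicate 3, 0.0556 without Control replicate 1 and 0.0669 without Control replicate 2. MDM4 (ENSG00000198625, chromosome 1, 204516379 to 204558120), which binds p53 and blocks its activation domain, had 51.3, 51.5 and 50.1 CPM with PEG and HS and 44.9, 41.3 and 45.0 CPM in Control. The media were well separated, at 51.0 ± 0.799 against 43.7 ± 2.12 CPM (log2 fold change 0.22, SE 0.042, edgeR adjusted p = 0.00109). CCNG1 (ENSG00000113328, chromosome 5, 163437569 to 163446151), a p53-induced cyclin that acts on MDM2 through a protein phosphatase, moved the other way, with 326, 318 and 320.3 CPM with PEG and HS and 363, 364 and 385 CPM in Control. Each Control library lay above each PEG and HS library, at 322 ± 4.18 against 370.3 ± 12.3 CPM (log2 fold change -0.20, SE 0.029, edgeR adjusted p = 7.74e-05). PPM1D, the phosphatase that switches off the DNA damage response, had 25.6 ± 1.203 against 24.2 ± 0.654 CPM with overlapping libraries (log2 fold change 0.08, SE 0.052, edgeR adjusted p = 0.269).

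Of the 5 genes of arrest and growth, PLK3 rose and GADD45B fell, beside 12.2% of all genes tested called higher and 13.1% lower. CDKN1A (ENSG00000124762, chromosome 6, 36676460 to 36687337) encodes p21, the inhibitor of cyclin-dependent kinases through which p53 arrests the cell cycle. It was counted at 11.0, 11.7 and 10.6 CPM with PEG and HS and 10.7, 10.5 and 9.12 CPM in Control. The lowest PEG and HS library lay below the highest Control library, so the media overlapped. The means were 11.1 ± 0.553 against 10.1 ± 0.860 CPM (log2 fold change 0.14, SE 0.078, edgeR adjusted p = 0.226), with a 95% interval of the log2 fold change of -0.03 to 0.30. With the correction for GC content and length CDKN1A was called higher. GADD45B (ENSG00000099860, chromosome 19, 2476122 to 2478259), a stress sensor that activates p38 and JNK signalling, had 1.60, 1.56 and 1.36 CPM with PEG and HS and 2.85, 3.02 and 2.80 CPM in Control. All 3 Control libraries were well above all 3 PEG and HS libraries, and GADD45B was 1.92-fold lower, at 1.51 ± 0.129 against 2.89 ± 0.113 CPM (log2 fold change -0.94, SE 0.16, edgeR adjusted p = 0.000452). PLK3 (ENSG00000173846, chromosome 1, 44800377 to 44805990), a polo-like kinase activated by stress, had 5.93, 6.30 and 6.18 CPM with PEG and HS and 4.78, 4.77 and 4.93 CPM in Control. Both media were tight and did not overlap, at 6.14 ± 0.188 against 4.83 ± 0.0905 CPM (log2 fold change 0.34, SE 0.092, edgeR adjusted p = 0.0121). In PLK3 the call was lost with DESeq2 (adjusted p = 0.0746). GADD45A, the DNA damage-inducible relative of GADD45B, had 9.66 ± 0.242 against 8.86 ± 0.591 CPM. Its libraries did not overlap, but the gene was not called (log2 fold change 0.13, SE 0.075, edgeR adjusted p = 0.242). BTG2, an antiproliferative cofactor of mRNA deadenylation, overlapped between the media at 4.59 ± 0.839 against 5.37 ± 0.334 CPM (log2 fold change -0.22, SE 0.13, edgeR adjusted p = 0.231).

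RRM2B was the repair gene that rose, and the 3 genes of damage recognition and bypass did not pass the test. RRM2B (ENSG00000048392, chromosome 8, 102204502 to 102238961) is the p53-induced subunit of ribonucleotide reductase and supplies nucleotides for repair. Its level was 70.0, 62.1 and 70.4 CPM with PEG and HS and 51.6, 51.8 and 58.7 CPM in Control. Control replicate 3 was the highest of its medium and lay below the lowest PEG and HS library. Means were 67.5 ± 4.68 against 54.0 ± 4.05 CPM (log2 fold change 0.32, SE 0.055, edgeR adjusted p = 0.00048). XPC, which recognises distorted DNA in nucleotide excision repair, had 56.5 ± 1.90 against 53.4 ± 2.26 CPM (log2 fold change 0.08, SE 0.041, edgeR adjusted p = 0.159). DDB2, which recognises ultraviolet lesions, had 29.3 ± 0.235 against 30.6 ± 1.42 CPM (log2 fold change -0.07, SE 0.047, edgeR adjusted p = 0.359), and the translesion polymerase POLH had 10.6 ± 0.437 against 10.8 ± 0.665 CPM (log2 fold change -0.02, SE 0.072, edgeR adjusted p = 0.88). The DDB2 libraries did not overlap, whereas those of XPC and POLH did.

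Among the 9 genes of metabolism and other targets, SESN1 and ZMAT3 rose and TP53INP1 fell. The shares over all genes tested were 12.2% higher and 13.1% lower. SESN1 (ENSG00000080546, chromosome 6, 108984309 to 109094846), a sestrin that restrains growth signalling through mTORC1, had 29.5, 30.9 and 29.1 CPM with PEG and HS and 26.5, 25.2 and 26.3 CPM in Control. The libraries of the media were apart, at 29.8 ± 0.946 against 26.0 ± 0.665 CPM (log2 fold change 0.20, SE 0.048, edgeR adjusted p = 0.00637). ZMAT3 (ENSG00000172667, chromosome 3, 178960121 to 179072215), a zinc finger protein that binds RNA and regulates splicing, had 21.3, 23.9 and 21.2 CPM with PEG and HS and 18.3, 18.6 and 20.9 CPM in Control. The highest Control library came close to the lowest PEG and HS library. The means were 22.1 ± 1.54 against 19.2 ± 1.41 CPM (log2 fold change 0.20, SE 0.066, edgeR adjusted p = 0.0424), and the adjusted p from edgeR was 0.0591 without PEG and HS replicate 1, 0.173 without PEG and HS replicate 2, 0.155 without Control replicate 1 and 0.144 without Control replicate 2. The ZMAT3 call was also lost with DESeq2 (adjusted p = 0.0803) and with upper quartile factors (adjusted p = 0.0549). TP53INP1 (ENSG00000164938, chromosome 8, 94925972 to 94949378), a stress protein of p53 signalling and autophagy, had 22.6, 20.8 and 22.9 CPM with PEG and HS and 26.7, 25.3 and 25.6 CPM in Control. Its Control libraries all lay above its PEG and HS libraries, at 22.1 ± 1.16 against 25.9 ± 0.716 CPM (log2 fold change -0.22, SE 0.053, edgeR adjusted p = 0.00625).

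The other 6 genes of this class did not pass the test. GDF15, a secreted stress cytokine, was low, with 2.08, 1.98 and 1.68 CPM with PEG and HS and 1.52, 1.23 and 1.30 CPM in Control. Its PEG and HS libraries were all above its Control libraries, yet the few counts left a wide interval of 0.10 to 0.91 around the log2 fold change (log2 fold change 0.51, SE 0.19, edgeR adjusted p = 0.0668). TP53I3, a quinone oxidoreductase, had 33.2 ± 1.73 against 36.1 ± 1.70 CPM (log2 fold change -0.12, SE 0.051, edgeR adjusted p = 0.103). SESN2, the second sestrin, had 34.3 ± 1.53 against 35.2 ± 0.357 CPM, and PHLDA3, which competes with AKT for membrane lipids, had 15.6 ± 0.480 against 16.2 ± 1.10 CPM. The glycolytic regulator TIGAR had 26.0 ± 3.15 against 26.4 ± 1.71 CPM, and the mitochondrial ferredoxin reductase FDXR had 17.4 ± 0.901 against 17.2 ± 0.974 CPM. For these 4 the media overlapped and the adjusted p from edgeR lay between 0.626 (SESN2) and 0.949 (TIGAR). TIGAR shares 22.6% of its 31-base transcript words with other genes, most with a readthrough gene that was counted as well, and PHLDA3 shares 19.0%, so both levels depend on how shared reads were assigned.

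**Figure D2:**
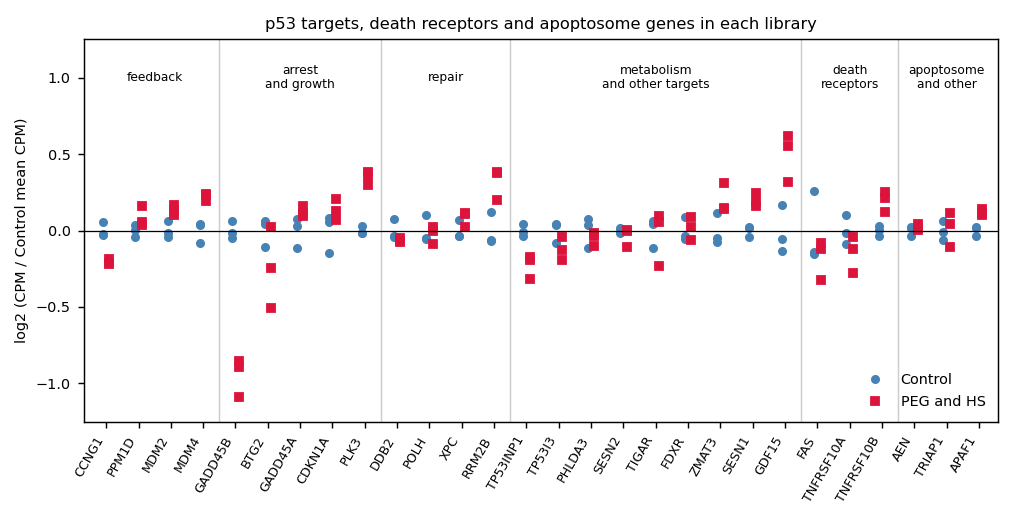
Level of each p53 target, death receptor and apoptosome gene in each library as log2 of its CPM over the Control mean CPM of that gene (y axis), with Control as circles and PEG and HS as squares. GADD45B lies lowest in PEG and HS, whereas the CDKN1A libraries of the media overlap.

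Death receptors couple extracellular ligands to caspases, and 1 of the 3 rose, beside 12.2% of all genes tested called higher. TNFRSF10B (ENSG00000120889, chromosome 8, 23020133 to 23069031), a receptor of the ligand TRAIL, had 119.8, 123 and 112 CPM with PEG and HS and 105, 101 and 104 CPM in Control. The media did not overlap, at 118 ± 5.45 against 103 ± 2.13 CPM (log2 fold change 0.20, SE 0.036, edgeR adjusted p = 0.000822). TNFRSF10A, the second TRAIL receptor that signals death, had 5.37 ± 0.446 against 5.92 ± 0.392 CPM (log2 fold change -0.14, SE 0.1, edgeR adjusted p = 0.343). FAS, the receptor of FAS ligand, had 2.86 ± 0.253 against 3.22 ± 0.545 CPM (log2 fold change -0.18, SE 0.15, edgeR adjusted p = 0.422). Both overlapped between the media, and neither was called.

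The BH3-only class had 6 of its 7 members called, 1 higher and 5 lower, with a median log2 fold change of -0.27. Over all genes tested, 12.2% were called higher and 13.1% lower. Among genes with a mean of at least 1 CPM, 29.6% were called. BIK (ENSG00000100290, chromosome 22, 43110750 to 43129712), a BH3-only protein of the endoplasmic reticulum, was counted at 0.474, 0.177 and 0.414 CPM with PEG and HS and 3.48, 3.72 and 3.71 CPM in Control. Each PEG and HS library was far below each Control library. BIK was 9.93-fold lower in PEG and HS (0.355 ± 0.157 against 3.64 ± 0.136 CPM, log2 fold change -3.31, SE 0.24, edgeR adjusted p = 6.94e-08), with a 95% interval of the log2 fold change of -3.83 to -2.79. The PEG and HS values rest on few reads, with 5 counts in the lowest library. Of all genes tested, 47 (0.285%) had a log2 fold change as low as that of BIK or lower. Genes called and lower by at least 2-fold made up 1.78% of those tested, and BIK was the member among them. In the trophectoderm list TFAP2A was at 0.603 ± 0.269 against 6.00 ± 0.230 CPM (log2 fold change -3.30, SE 0.20, edgeR adjusted p = 9.84e-09), and a link between the pair was not tested.

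Of the other BH3-only genes that fell, BMF (ENSG00000104081, chromosome 15, 40087890 to 40108892), a BCL2 antagonist held at the cytoskeleton, was at 36.0, 37.8 and 37.8 CPM with PEG and HS and 45.9, 51.2 and 48.9 CPM in Control. The gap between the media was wider than the spread of either, at 37.2 ± 1.05 against 48.6 ± 2.66 CPM (log2 fold change -0.39, SE 0.046, edgeR adjusted p = 1.31e-05). BBC3 (ENSG00000105327, chromosome 19, 47220822 to 47232766), which encodes the p53-induced killer PUMA, had 17.5, 18.1 and 18.3 CPM with PEG and HS and 21.8, 24.4 and 21.8 CPM in Control. Again the Control libraries were all higher, at 17.9 ± 0.417 against 22.7 ± 1.51 CPM (log2 fold change -0.34, SE 0.059, edgeR adjusted p = 0.000541). BAD (ENSG00000002330, chromosome 11, 64269830 to 64284704), which is kept inactive by growth factor signalling through phosphorylation, had 10.8, 10.3 and 10.2 CPM with PEG and HS and 12.5, 12.99 and 12.3 CPM in Control. Its media were apart, at 10.4 ± 0.337 against 12.6 ± 0.343 CPM (log2 fold change -0.27, SE 0.065, edgeR adjusted p = 0.00622). BCL2L11 (ENSG00000153094, chromosome 2, 111119378 to 111168444), which encodes BIM, had 27.3, 30.6 and 25.9 CPM with PEG and HS and 33.0, 30.7 and 33.0 CPM in Control. The highest PEG and HS library and the lowest Control library nearly touched. The BCL2L11 means were 27.9 ± 2.42 against 32.2 ± 1.29 CPM (log2 fold change -0.21, SE 0.059, edgeR adjusted p = 0.016). Its adjusted p from edgeR was 0.0708 without PEG and HS replicate 1, 0.0758 without PEG and HS replicate 3, 0.0546 without Control replicate 1 and 0.0576 without Control replicate 3.

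PMAIP1 (ENSG00000141682, chromosome 18, 59899996 to 59904305) encodes NOXA, a p53-induced BH3-only protein that binds MCL1. It was counted at 114, 106 and 108 CPM with PEG and HS and 84.8, 82.0 and 88.8 CPM in Control. All PEG and HS libraries lay above all Control libraries, and PMAIP1 was 1.29-fold higher (109.6 ± 4.25 against 85.2 ± 3.44 CPM, log2 fold change 0.36, SE 0.038, edgeR adjusted p = 3.46e-06). BID, which links death receptors to mitochondria after cleavage by caspases, had 29.5 ± 1.21 against 28.1 ± 0.899 CPM with overlap (log2 fold change 0.07, SE 0.049, edgeR adjusted p = 0.36).

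BMF and PMAIP1 moved in opposite directions within the BH3-only class, and the 250 bases before their RefSeq starts are shown for that reason, 5′ to 3′ on the gene's strand, with GGGCGG (GC box) and CCAAT matches on either strand in capitals. The BMF sequence is chr15:40108880-40109129 (minus strand) and the PMAIP1 sequence is chr18:59899746-59899995 (plus strand) of GRCh38.p14.
BMF: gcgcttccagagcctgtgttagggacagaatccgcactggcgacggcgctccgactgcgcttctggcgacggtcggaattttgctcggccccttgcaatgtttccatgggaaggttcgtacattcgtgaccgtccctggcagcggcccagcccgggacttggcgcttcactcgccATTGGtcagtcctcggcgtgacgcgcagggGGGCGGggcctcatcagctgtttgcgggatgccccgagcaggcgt
PMAIP1: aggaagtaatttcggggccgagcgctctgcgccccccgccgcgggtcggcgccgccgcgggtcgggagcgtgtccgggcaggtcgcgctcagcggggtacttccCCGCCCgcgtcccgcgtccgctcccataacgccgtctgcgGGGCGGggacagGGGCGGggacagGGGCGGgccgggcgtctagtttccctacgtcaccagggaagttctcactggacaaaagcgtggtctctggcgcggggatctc
The BMF stretch holds 1 GGGCGG and 1 CCAAT match (the latter read as ATTGG), with 65.2% GC. The PMAIP1 stretch holds 4 GGGCGG matches and no CCAAT, with 72.8% GC. Windows of 250 bases before to 50 bases after the start were at hand for 32 of the 40 members, and entries for GADD45A, RRM2B, TP53INP1, PHLDA3, TNFRSF10A, TNFRSF10B, BIK and MCL1 were missing. GGGCGG occurred in 25 of these 32 (78.1%) and in 66.6% of the 12823 windows of genes tested, and CCAAT in 18 (56.3%) and 36.3%. The E-box CACGTG occurred in 4 (12.5%) and 9.45%, and the cyclic AMP element TGACGTCA in 1 (3.13%) and 2.95%. Single p53 half-sites matching the consensus in every base lay in 3 windows (FDXR, BAK1 and AEN, 9.38%) and in 5.46% of the windows of genes tested. No member window held 2 such exact half-sites within 13 bases, and 0.0234% of the windows of genes tested did. No mismatch was allowed, so p53 sites that deviate from the consensus were not searched for, in PMAIP1 or any other window. These are letter matches in a short window and no more. The median GC content was 67.7% in the member windows and 64.7% in those of genes tested.

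**Figure D3:**
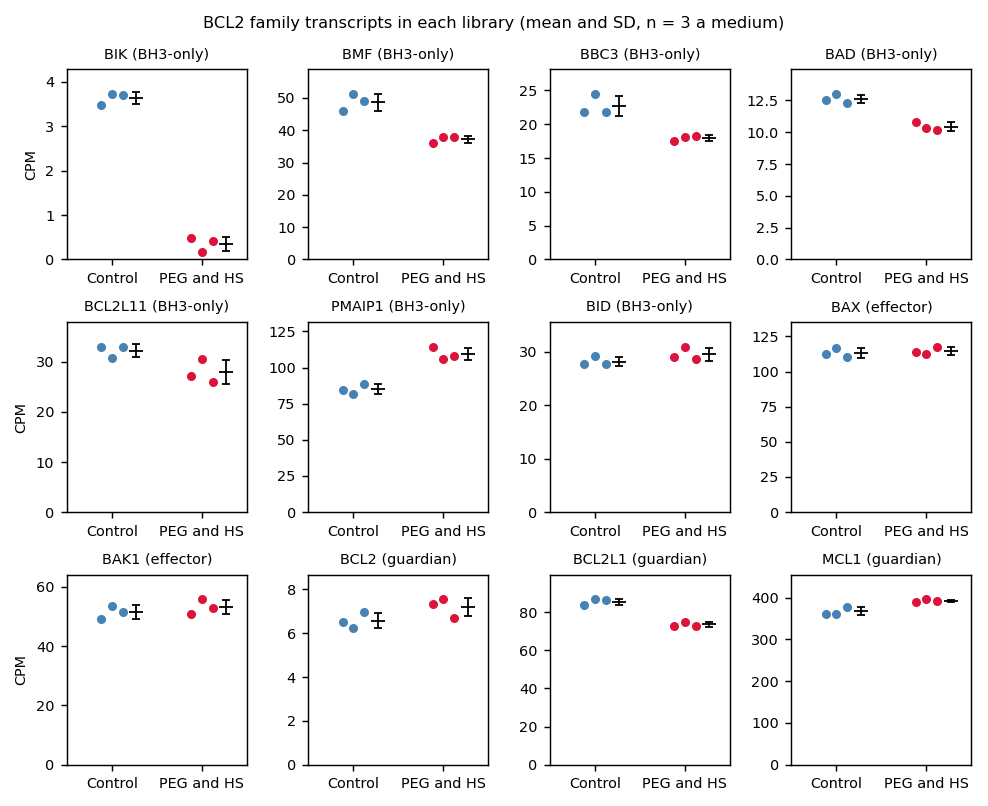
CPM (y axis, from 0) of 12 BCL2 family transcripts in each library of Control and PEG and HS, with the mean and SD (n = 3 a medium) beside the points. BIK, BMF, BBC3, BAD, BCL2L11 and BCL2L1 are lower in each PEG and HS library, PMAIP1 and MCL1 are higher, and BID, BAX, BAK1 and BCL2 overlap.

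The effectors that form the membrane pore were not called. BAX (ENSG00000087088, chromosome 19, 48954815 to 48961798) was measured at 114, 112 and 118 CPM with PEG and HS and 112, 117 and 111 CPM in Control. The libraries of the media were interleaved, at 115 ± 2.77 against 113 ± 3.23 CPM (log2 fold change 0.02, SE 0.032, edgeR adjusted p = 0.737), and the 95% interval of the log2 fold change was -0.05 to 0.09. BAK1 had 53.2 ± 2.47 against 51.5 ± 2.24 CPM with overlap (log2 fold change 0.04, SE 0.044, edgeR adjusted p = 0.534). BAK1 shares 16.8% of its transcript words with other genes, most with the pseudogene BAK1P1. With the correction for GC content and length both effectors were called higher, so that their place on either side of the threshold depends on it.

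Guardians moved in both directions. BCL2L1 (ENSG00000171552, chromosome 20, 31664452 to 31723989), which encodes BCL-XL, was at 73.0, 75.1 and 72.6 CPM with PEG and HS and 83.8, 86.7 and 86.2 CPM in Control. Each PEG and HS library was lower than each Control library, at 73.6 ± 1.34 against 85.6 ± 1.54 CPM (log2 fold change -0.22, SE 0.032, edgeR adjusted p = 0.000104). MCL1 (ENSG00000143384, chromosome 1, 150560895 to 150579738), a short-lived guardian, had 389, 395 and 391 CPM with PEG and HS and 361, 362 and 378 CPM in Control. Control replicate 3 was the nearest to the PEG and HS libraries, which were all higher. The difference was 392 ± 3.49 against 367 ± 9.48 CPM (log2 fold change 0.09, SE 0.027, edgeR adjusted p = 0.0174), and the adjusted p from edgeR was 0.0547 without PEG and HS replicate 2, 0.0948 without Control replicate 1 and 0.0774 without Control replicate 2. BCL2 (ENSG00000171791, chromosome 18, 63123346 to 63320128), the founding guardian, was low, with 7.32, 7.54 and 6.71 CPM with PEG and HS and 6.52, 6.25 and 6.96 CPM in Control. The lowest PEG and HS library and the highest Control library overlapped, at 7.19 ± 0.431 against 6.58 ± 0.357 CPM (log2 fold change 0.12, SE 0.087, edgeR adjusted p = 0.334), and the 95% interval of the log2 fold change was -0.06 to 0.31.

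Levels of different genes were compared per length, as counts per kilobase of the canonical transcript scaled to the same sum in each library, without TMM factors. On this length-scaled level, BAX was the highest BCL2 family transcript among the members, with 335 ± 7.54 in PEG and HS and 324 ± 6.00 in Control. MCL1 followed with 230.4 ± 1.98 in PEG and HS and 211 ± 6.94 in Control, then PMAIP1 with 134 ± 5.43 in PEG and HS and 102 ± 5.04 in Control and BCL2L1 with 66.4 ± 1.24 in PEG and HS and 75.6 ± 1.17 in Control. BAK1 had 56.9 ± 2.597 in PEG and HS and 54.0 ± 1.97 in Control. Below these, in the order of PEG and HS, lay BID with 31.5 ± 1.30 in PEG and HS and 29.4 ± 0.645 in Control, BAD with 26.1 ± 0.901 in PEG and HS and 30.8 ± 0.528 in Control, BBC3 with 22.6 ± 0.476 in PEG and HS and 27.9 ± 1.57 in Control and BMF with 18.4 ± 0.483 in PEG and HS and 23.6 ± 1.13 in Control. In Control, BID and BBC3 lay within their SDs of each other. BCL2L11 had 12.7 ± 1.11 in PEG and HS and 14.4 ± 0.716 in Control, BCL2 had 2.43 ± 0.150 in PEG and HS and 2.17 ± 0.137 in Control and BIK had 0.868 ± 0.385 in PEG and HS and 8.70 ± 0.300 in Control. The first rank of BAX depends on its canonical transcript of 795 bases, whereas its exons together cover 2587 bases. Without length, MCL1 (392 ± 3.49 against 367 ± 9.48 CPM) lay above BAX (115 ± 2.77 against 113 ± 3.23 CPM).

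**Figure D4:**
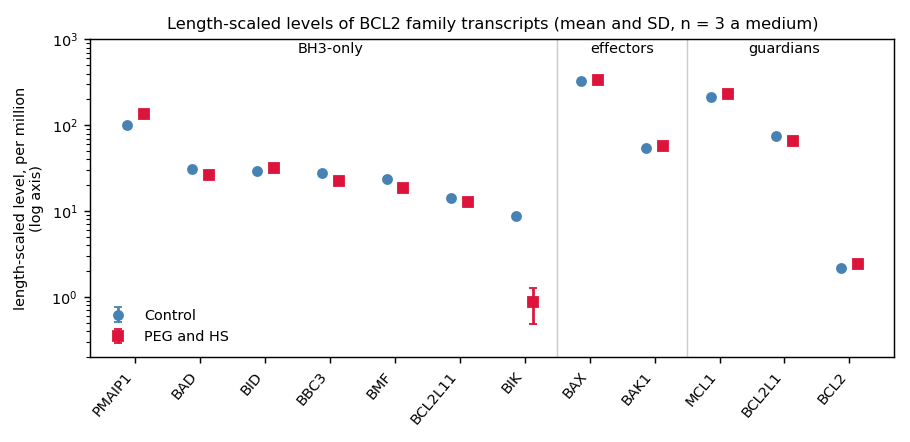
Length-scaled level (y axis, log scale, counts per kilobase of the canonical transcript, scaled to the same sum in each library) of each BH3-only, effector and guardian transcript in Control (circles) and PEG and HS (squares), as mean and SD (n = 3 a medium). BAX and MCL1 are the highest in both media on this scale, where the canonical BAX transcript is short (795 bases). BIK falls from 8.70 ± 0.300 in Control to 0.868 ± 0.385 in PEG and HS.

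Summed within each library, the 3 guardians had 299 ± 3.31 (SD, n = 3) in PEG and HS and 289 ± 7.90 in Control on the length-scaled level, and the 2 effectors had 392 ± 6.69 and 378 ± 7.16. Without TMM factors, differences between media in these sums need not equal those in CPM. BAX had 335 ± 7.54 against 324 ± 6.00 on this scale but 115 ± 2.77 against 113 ± 3.23 CPM. Ratios within a library do not depend on that scaling. The ratio of guardians to effectors was 0.764 ± 0.0192 in PEG and HS and 0.766 ± 0.0322 in Control, a difference within the spread of the libraries. The short canonical BAX transcript raises the effectors here, and without length the ratio of summed CPM was 2.82 ± 0.0523 and 2.79 ± 0.119. Within the guardians the ratio of MCL1 to BCL2L1 was 3.47 ± 0.0368 in PEG and HS and 2.79 ± 0.0704 in Control, with 3.43 to 3.51 and 2.72 to 2.86 as ranges. The 7 BH3-only transcripts summed to 246 ± 5.02 in PEG and HS and 237 ± 3.86 in Control. PMAIP1 made up 134 ± 5.43 and 102 ± 5.04 of these sums, and the other 6 made up 112 ± 2.20 and 135 ± 3.07. The ratio of BH3-only to guardian level was 0.824 ± 0.0206 and 0.820 ± 0.0100. These sums and ratios are descriptions of transcripts and were not tested. They cover the members alone and leave out other BCL2 family genes, among them the guardian BCL2L2 and the BH3-only gene HRK.

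Downstream of the mitochondria, APAF1 (ENSG00000120868, chromosome 12, 98645290 to 98735433), the scaffold of the apoptosome, had 38.4, 37.7 and 37.3 CPM with PEG and HS and 34.0, 35.3 and 35.2 CPM in Control. The PEG and HS libraries were all higher, at 37.8 ± 0.544 against 34.8 ± 0.744 CPM (log2 fold change 0.12, SE 0.041, edgeR adjusted p = 0.0485). The APAF1 call was at the edge of the threshold and was lost when any 1 of the 6 libraries was left out, with an adjusted p from edgeR of 0.0725 (without PEG and HS replicate 3) to 0.149 (without PEG and HS replicate 1). With all 6 libraries it was also lost in most alternatives, among them DESeq2 (adjusted p = 0.163) and edgeR with GC and length offsets (adjusted p = 0.151). It was kept with limma-voom and with library size alone. AEN, a p53-induced exonuclease that degrades nuclear DNA, had 154 ± 2.27 against 152 ± 3.50 CPM (log2 fold change 0.02, SE 0.029, edgeR adjusted p = 0.684). TRIAP1, a p53-induced mitochondrial lipid carrier that restrains apoptosis, had 41.2 ± 3.25 against 40.7 ± 1.79 CPM (log2 fold change 0.02, SE 0.054, edgeR adjusted p = 0.795). Both overlapped between the media.

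Taking arrest, repair and apoptosis side by side, the 5 arrest genes held 1 called higher and 1 called lower (median log2 fold change 0.13), and the 4 repair genes held 1 called higher and none lower (median 0.03). The 15 apoptosis genes, which are the death receptors, BH3-only proteins, effectors and guardians, held 3 called higher and 6 called lower (median -0.14). By the narrower roles the medians were 0.11 for feedback, -0.0092 for metabolism and other targets, -0.14 for death receptors, -0.27 for BH3-only, 0.03 for effectors, 0.09 for guardians and 0.02 for the apoptosome and others. The called share of all genes tested was 25.3% (12.2% higher and 13.1% lower). The differences between roles were not tested.

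Other genes of the same pathways are set beside the members. Their counts stand beside a called share of 25.3% over all genes tested. This share was 29.6% among genes with a mean of at least 1 CPM. Of 10 other BCL2 family genes tested, 1 was called higher and 3 lower. HRK, a BH3-only gene of neurons, fell and was at 10.6 ± 0.401 against 15.0 ± 0.968 CPM (log2 fold change -0.50, SE 0.068, edgeR adjusted p = 5.7e-05). The mitophagy receptor BNIP3L (-0.17) and the guardian BCL2L2 (-0.16) fell as well, and BNIP3 (0.13) rose. Among 22 caspases, adaptors and inhibitors 4 were called higher and 0 lower, with a median log2 fold change of 0.03. CASP10, an initiator caspase, rose and was at 3.52 ± 0.164 against 2.47 ± 0.314 CPM (log2 fold change 0.50, SE 0.14, edgeR adjusted p = 0.0151). DFFA, the inhibitor of the caspase-activated nuclease (0.15), and BIRC6, a ubiquitin ligase that restrains caspases (0.09), rose as well.

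Of 15 upstream regulators of p53, 3 were called higher and 3 lower. The shares over all genes tested, for these and the lists below, were 12.2% higher and 13.1% lower. The damage kinase ATR rose (log2 fold change 0.23, SE 0.042, edgeR adjusted p = 0.000885), as did USP7 (0.14), which deubiquitinates MDM2 and p53. RPL5, a ribosomal protein that can bind MDM2 (-0.13), and the kinase HIPK2 (-0.12) fell. A list of 20 other p53 targets had 6 called higher and 1 lower, with a median of 0.05. SFN (0.51), EDA2R (0.41) and FBXO22 (0.25) rose, and TRIM22, an antiviral ubiquitin ligase, fell and was at 9.32 ± 0.394 against 14.5 ± 0.684 CPM (log2 fold change -0.63, SE 0.068, edgeR adjusted p = 5.55e-06). Of 13 ATF4 and CHOP targets, which respond to amino acid and endoplasmic reticulum stress and some of which p53 also controls, 4 were called higher and 1 lower. DDIT4, an inhibitor of mTORC1 that p53 and hypoxia induce, fell and was at 17.6 ± 0.853 against 30.6 ± 0.970 CPM (log2 fold change -0.80, SE 0.053, edgeR adjusted p = 2.25e-08), and CEBPB (0.20), STC2 (0.18) and VLDLR (0.17) rose. Some of these counts rest on single libraries. Without Control replicate 1, 2 of the other BCL2 family genes, 2 of the caspase list and 3 of the ATF4 and CHOP list were called. Without Control replicate 2 the caspase list had 2 and the ATF4 and CHOP list 3. Without PEG and HS replicate 1, 4 of the other p53 targets and 3 of the ATF4 and CHOP targets were called, and without PEG and HS replicate 3 the latter had 2.

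**Figure D5:**
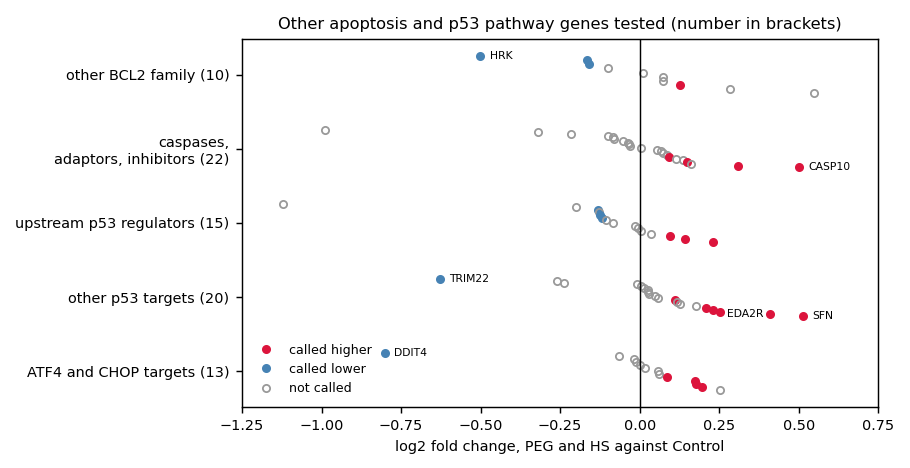
Log2 fold change (x axis, PEG and HS against Control) of each tested gene in 5 other lists of apoptosis and p53 pathway genes, with called genes filled and genes that were not called open. DDIT4 (-0.80), TRIM22 (-0.63) and HRK (-0.50) are the lowest called genes, and SFN (0.51) and CASP10 (0.50) are the highest.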

How the data were processed

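Bulk mRNA of NCRM-1 aggregates was sequenced in 3 PEG and HS and 3 Control libraries. According to the methods and the submitters' processing notes, the authors prepared stranded libraries, trimmed reads with Trim Galore 0.6.7 and mapped them to GRCh38 with STAR 2.6.1. The values deposited by the authors are raw counts per gene, without normalization, and the counting tool and its use of strand are not given in the sources used here. The 6 libraries held 26991279 to 36185138 counts, so depth resolves small differences in well-counted genes but not in genes of few counts. Replicates of a medium differed by more than counting noise, with a chi-square of 2.61 to 3.60 times its degrees of freedom.

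Of 19977 Ensembl identifiers, 19916 matched GENCODE 44. The 16505 genes that reached 10 counts in total were tested with edgeR 4.0.16 in R 4.3.3 (TMM, glmQLFit and glmQLFTest, two-sided, no covariate), with Benjamini-Hochberg adjustment over all genes tested and a threshold of 0.05. SEs were derived from the fold change and the F statistic (absolute log2 value divided by the root of F). Members, lists and roles were chosen with earlier results of these data known, so no test was made over a list. Full statistics were given for called members without overlap and for CDKN1A, MDM2, BAX, BCL2, BCL2L1 and MCL1. From each other list, up to 4 called genes were named, those with the largest change whose higher medium reached 1 CPM in all 3 libraries. Some genes of these pathways are not reported here.

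The alternatives were DESeq2 1.42.0, limma-voom (limma 3.58.1), other normalizations and filters, the replicate number as a block, a correction for GC content and length (16473 genes with values), tests against 1.2-fold and 1.5-fold, and each library left out. On simulated counts for PEG and HS against Control (200 of 16390 genes changed, drawn from those with at least 1 CPM), edgeR recovered 63.2% of 1.25-fold, 83.3% of 1.5-fold and 97.0% of 2-fold changes, 7.43% of its calls were false, and it called 5 genes where none was changed. For a single gene, 3 libraries against 3 cannot reach an exact permutation p under 0.1. Promoter windows are from RefSeq (GRCh38.p14), with the first window listed used where a gene had more than 1.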

Additional observations from a re-analysis of the deposited data

How the results depend on the processing

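Over 18 alternatives, none of the 19 called members changed sign, 12 of them stayed called in each of the 16 alternatives that test against 0, and BIK stayed called in all 18. The 7 that lost their call in an alternative against 0 were MDM2, MCL1, ZMAT3, BCL2L11 and APAF1 (with libraries left out, among others), PLK3 (with DESeq2) and BAD (log2 fold change -0.19, adjusted p = 0.0579, with the replicate block and GC and length offsets). The members called higher numbered 10 in the reported fit, 7 with DESeq2, 16 with GC and length offsets and 15 with those offsets and the replicate block. Over all genes tested, the calls higher were 2016, 1555, 2904 and 2989 in the same order. With the GC and length offsets CDKN1A, GADD45A, XPC, GDF15, BAX, BAK1 and AEN were added and APAF1 was lost. Leaving out 1 library in turn gave 6 to 9 called higher, 8 to 9 called lower and 3114 to 3674 genes called in all, where fewer samples entered the fit. Tested against a 1.2-fold change, 1 member was called higher and 3 lower among 868 genes, and against a 1.5-fold change 0 and 1 among 264. The median log2 fold change of all genes lay between -0.0076 and 0.025 under each setting.

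In the other lists, the 4 called genes of the BCL2 family became 2 with DESeq2, 1 against 1.2-fold, 0 against 1.5-fold and 2 to 3 with a library left out. The caspase list went from 4 to 0 against 1.2-fold and 0 against 1.5-fold and to 2 to 5 with a library left out, the upstream regulators from 6 to 0, 0 and 4 to 7, the other p53 targets from 7 to 1, 0 and 4 to 7, and the ATF4 and CHOP targets from 5 to 1, 1 and 2 to 5.

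With GC and length offsets, without and with the replicate block, the median log2 fold change became 0.074 and 0.075 over all members, 0.198 and 0.197 for arrest and growth, -0.195 and -0.196 for BH3-only, 0.102 and 0.104 for effectors and 0.0677 and 0.0677 for the apoptosome and others. Left-out libraries gave medians of 0.00042 to 0.033 over all members, -0.053 to 0.053 for metabolism and other targets, -0.187 to -0.027 for death receptors (the latter without Control replicate 3) and 0.021 to 0.081 for the apoptosome and others. Members that were not called and changed sign did so near 0. With GC and length offsets, without and with the replicate block, these were SESN2 (0.030 and 0.029), TIGAR (0.0096 and 0.0027) and PHLDA3 (0.027 and 0.026). With a library left out the log2 fold changes ranged over -0.050 to 0.031 for POLH, -0.055 to 0.0024 for SESN2, -0.070 to 0.082 for TIGAR, -0.020 to 0.068 for FDXR, -0.0016 to 0.040 for BAX, -0.00035 to 0.029 for AEN and -0.028 to 0.081 for TRIAP1. In the guardian to effector ratio, CPM without length gave 2.82 in PEG and HS and 2.79 in Control. The cause of these shifts was not tested.

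The replicate numbers did not pair the samples: the deviations of same-numbered libraries correlated at r = 0.014, -0.015 and 0.048, and no library correlated best with its own number. With the replicate number as a block, 4444 genes were called, among them 9 members higher and 9 lower, with APAF1 lost.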
